A study of Mus musculus with 2 samples.

Results

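Fragments of 7 noncoding RNAs were followed in small RNA libraries of mouse testis: the Y RNAs Rny1 and Rny3, the vault RNA Vaultrc5, the 7SK RNA Rn7sk, the catalytic RNAs Rmrp and Rpph1, and the telomerase RNA Terc. The members were chosen by name from 55536 annotated genes, and their fragments were the reads of 18 to 32 nt that matched the GENCODE M21 transcripts exactly and in the sense direction. The labels describe 2 samples of 23 dpp testis (days after birth) on a C57BL/6 background, 1 of genotype Stambp-ps1+/- and 1 of genotype Stambp-ps1-/-; they do not say how the allele was made or how many animals gave RNA. The record places both deposited tables under the Stambp-ps1-/- sample, so they are told apart by the words KO and het in their names, as KO-marked and het-marked, and were assigned to no genotype. The KO-marked table held 54384974 reads and the het-marked one had 62773871. Each table is 1 library, so no test between them was possible, and all intervals are exact 95% binomial intervals. They describe counting error only: without molecular identifiers, copies made by PCR count as separate molecules.

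These RNAs are short and strongly folded, and all work inside protein particles. Y RNAs bind the protein Ro60 through a stem formed by their 5' and 3' ends. Pieces of that stem are known from small RNA libraries of blood, cultured cells and sperm. Vault RNA belongs to the vault particle, 7SK RNA holds the elongation factor P-TEFb inactive, RNase MRP (Rmrp) processes ribosomal RNA, RNase P (Rpph1) trims the 5' ends of transfer RNAs, and Terc carries the template for telomere synthesis. In bulk tissue, fewer cells of a type and less RNA per cell cannot be told apart.

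The testis label fitted the miRNAs of the tables. The 4 miRNAs of meiotic and later germ cells summed to 6377 reads per 1000000 reads of the table (RPM) in the KO-marked and 4707 in the het-marked table. Of these, 3 were higher in the KO-marked table, led by Mir34c (5485 and 3964 RPM), while Mir184 was lower (80.3 and 104.0 RPM, a log2 ratio of -0.37). The 6 X-linked testis miRNAs summed to 18787 and 18199 RPM, with log2 ratios from -0.07 for Mir871 to 0.83 for Mir463. The 3 of Sertoli and other somatic testis cells summed to 28069 and 22947 RPM. Mir10b (19725 and 15745 RPM) and Mir143 (8246 and 7101) carried that sum, while Mir202 was slightly lower in the KO-marked table (98.2 and 101.4, log2 -0.05). Liver Mir122 had no matching read in either table. Blood miRNAs (Mir451a, Mir223, Mir142 and Mir144) summed to 68.1 and 45.7 RPM. Blood cells are a known source of Y RNA fragments. The sums of blood, germ cell, somatic and X-linked testis miRNAs were higher in the KO-marked table, as were Rny1 and Rmrp below. Rny3, the other Y RNA, was not higher there, with a KO-marked over het-marked ratio of 0.914 (0.810 to 1.03). Per miRNA reads, Rny1 had a log2 ratio of -0.09. All miRNA reads together were 12.6% of the KO-marked and 10.7% of the het-marked table. The part of these cells in the values of Rny1, Rny3 and Rmrp was not tested.

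The fragments that carry the findings are shown first, each in DNA letters from 5' to 3'. The whole Y RNAs are from GENCODE M21 (GRCm38), with the most abundant fragment of each end in capitals.
Rny1 (chr6:47788069-47788180, minus strand): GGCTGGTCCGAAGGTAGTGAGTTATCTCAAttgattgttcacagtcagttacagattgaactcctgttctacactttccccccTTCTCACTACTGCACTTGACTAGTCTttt
Rny3 (chr6:47781624-47781725, plus strand): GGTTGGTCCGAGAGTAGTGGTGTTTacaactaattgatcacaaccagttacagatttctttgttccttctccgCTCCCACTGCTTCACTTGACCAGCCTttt

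The 3 leading fragments of Rmrp share 1 start and differ by their last bases, which are in capitals where they run past the shortest of the set. The fragments run on the minus strand of chromosome 4.
Rmrp, 29 nt (chr4:43493031-43493059): agctcgctctgaaggcctgtttcctaggc
Rmrp, 30 nt (chr4:43493030-43493059): agctcgctctgaaggcctgtttcctaggcT
Rmrp, 31 nt (chr4:43493029-43493059): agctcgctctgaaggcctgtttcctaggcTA

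The leading fragments of Rn7sk also form a nested set, but with a common 3' end and a ragged 5' end. The capitals mark the 18 bases common to the forms of 18 to 24 nt in this set, of which 3 are shown. Of these 3, the 19-nt one differed most between the tables.
Rn7sk, 24 nt (chr9:78175558-78175581, minus strand): ttgattCGGCTGATCTGGCTGGCT
Rn7sk, 22 nt (chr9:78175558-78175579, minus strand): gattCGGCTGATCTGGCTGGCT
Rn7sk, 19 nt (chr9:78175558-78175576, minus strand): tCGGCTGATCTGGCTGGCT

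Together the members were a minor part of the libraries, with 8479 reads (155.9 RPM) in the KO-marked and 8752 (139.4 RPM) in the het-marked table, from 1976 distinct sequences. Rmrp led with 90.9 RPM (88.4 to 93.5) in the KO-marked and 63.5 (61.5 to 65.5) in the het-marked table. Rny1 followed with 32.7 RPM (31.2 to 34.3) and 29.6 (28.27 to 30.98). Rn7sk had 14.4 RPM (13.4 to 15.5) and 25.3 (24.04 to 26.54). These 3 RNAs gave most of the reads, and their intervals do not overlap within a table.

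The other 4 members lay lower. Rny3 had 9.03 RPM (8.25 to 9.86) in the KO-marked and 9.88 (9.11 to 10.7) in the het-marked table, and Rpph1 had 6.79 (6.11 to 7.51) and 9.54 (8.79 to 10.3). Those of Rny3 and Rpph1 overlap in the het-marked table. Vaultrc5 was represented by only 93 and 89 reads, or 1.71 RPM (1.38 to 2.10) and 1.42 (1.14 to 1.75). Terc was nearly at the floor of detection, with 18 reads (0.331 RPM) and 16 (0.255 RPM), where the floor of 3 reads is 0.0552 and 0.0478 RPM.

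**Figure D1:**
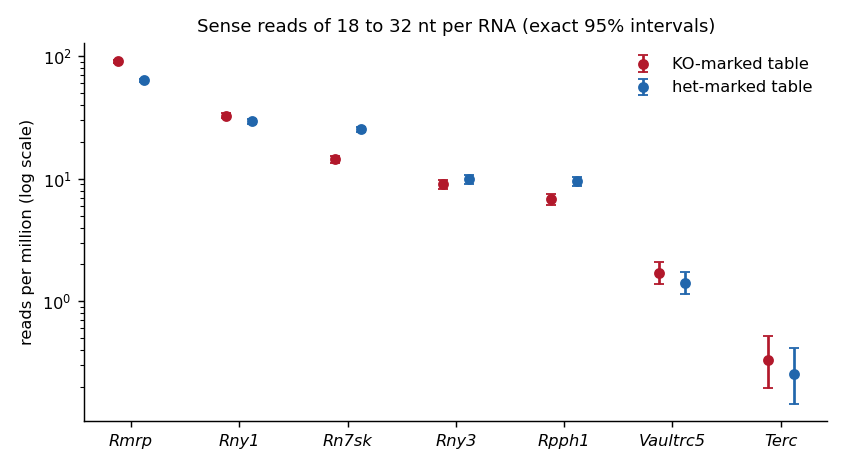
Sense reads of 18 to 32 nt of each RNA, in RPM on a log axis, with exact 95% intervals, for the KO-marked (red) and het-marked (blue) table. Levels run from Rmrp, at 90.9 and 63.5 RPM, to Terc, at 0.331 and 0.255 RPM.

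Per length of RNA, Rny3 passed Rn7sk and the order was otherwise nearly kept. Per 100 nt of transcript, Rmrp had 32.4 RPM in the KO-marked and 22.6 in the het-marked table, and Rny1 had 29.2 and 26.4. These 2 RNAs changed places between the tables, each time with intervals that do not overlap. Rny3 (8.85 and 9.68 RPM per 100 nt), Rn7sk (4.36 and 7.63), Rpph1 (2.13 and 2.99), Vaultrc5 (1.20 and 0.992) and Terc (0.0782 and 0.0603) kept 1 order in both tables. A fragment count is not a measure of the intact RNA, since only pieces of 18 to 32 nt are in the tables.

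The fragments lay on the strand of the RNA. The reverse complement of the 7 transcripts, searched in the same way, held 1 read in all, for Rmrp in the KO-marked table. For Rmrp this bears on its neighbour Ccdc107, a coding gene whose 5' end overlaps it on the other strand.

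Some reads also matched other annotated genes. All reads of Rny3 and Terc matched the member alone, as did 93.9% of Rny1 reads in both tables, and 99.7% of KO-marked and 97.6% of het-marked Rmrp reads. For Rn7sk only 85 of 784 and 175 of 1586 reads did, because 80 other genes share at least 1 read with it. Of these, 3 share over 75% of its reads in each table, Gm24447, Gm26315 and Gm26035, so its values cannot be told from theirs. For Rpph1 50.1% and 40.1% matched it alone, mostly because the coding gene Ccnb1ip1 lies over it on the same strand.

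Of the 7 members, 3 had at least 50% of their reads at an end of the RNA in each table: Rny1, Rny3 and Rmrp. The share of all annotated genes that reach this is not given here, so whether 3 of 7 is unusual was not tested. An end here means the first or last 5 bases: with the first or last base alone the number was 0 (the Rmrp fragment starts at base 5), and with distinct sequences in place of reads it was 1. Rny1 gave fragments of both ends. A read was counted to the 5' end when it started within the first 5 bases of the transcript, and to the 3' end when it finished within the last 5. The 5' end held 47.4% (45.1 to 49.8) of the KO-marked and 46.9% (44.6 to 49.2) of the het-marked reads, or 15.5 and 13.9 RPM. The 3' end held 31.7% (29.5 to 33.9) and 35.1% (32.9 to 37.3), or 10.4 RPM in each table. With the last 10 bases in place of 5 the 3' share was 45.7% and 46.7%, because many reads finished at base 106 of 112. The loop between the ends was thin: reads wholly within bases 33 to 82 made up 5.28% and 5.17%.

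The Rny1 fragments had few start sites and several end sites. At the 5' end, 828 KO-marked and 845 het-marked reads started at base 1, and the most frequent ends there were base 30 (306 and 315 reads), base 32 (171 and 199) and base 26 (120 and 140). The most abundant, the 30-nt form in capitals above, had 304 reads in the KO-marked and 298 in the het-marked table, a ratio of KO-marked over het-marked of 1.18 (1 to 1.39). Starts of the 3' fragments fell on base 83 (404 and 381 reads) or 84 (355 and 425). The leading 3' fragment, of 26 nt, had 166 and 201 reads, a ratio of 0.953 (0.771 to 1.18). A shorter 3' form from base 83 to base 106, which lies before the last 5 bases, had 97 reads in the KO-marked table and 62 in the other, a ratio of 1.81 (1.30 to 2.53). In both tables the fragments of Rny1 thus began and ended at the same few bases.

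Rny3 gave mostly fragments of its 3' end. That end held 69.5% (65.2 to 73.5) of KO-marked and 71.3% (67.6 to 74.8) of het-marked reads, against 14.3% (11.3 to 17.7) and 16.3% (13.5 to 19.4) for the 5' end. The intervals of the 5' share of Rny3 lie far below those of Rny1 in each table, although no test between the 2 RNAs was run. The leading Rny3 fragment, of 26 nt from base 74, had 110 and 118 reads, a ratio of 1.08 (0.822 to 1.41). The leading 5' fragment, of 25 nt, had only 7 and 23 reads.

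The end forms of the Y RNAs resembled each other in sequence and in their last base. Rny1 and Rny3 were identical at 72.3% of aligned positions over the whole RNA, at 71.0% over the first 30 nt and at 76.7% over the last 30 nt. Within the first 30 nt the longest run in common was TGGTCCGA, from base 4 in both, and within the last 30 nt it was CACTTGAC. Of 30345 annotated transcripts under 500 nt, 0.171% hold the first run and 0.369% the second, in the sense direction. Both RNAs end in 4 U, the stop signal of RNA polymerase III. Of the 3' fragments of Rny1, 59.6% in the KO-marked and 56.0% in the het-marked table kept exactly 1 of these 4 U, and of Rny3 it was 74.8% and 69.0%. All 4 U were kept in 3.37% and 3.99% for Rny1 and in 0 of 341 and 1 of 442 reads for Rny3.

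In the predicted fold of the RNAs the end fragments lay on the stem. RNAfold placed 60.7% of Rny1 bases and 64.7% of Rny3 bases in pairs, against 69.9% and 69.6% of the bases of Rny1 reads and 76.5% and 77.0% of those of Rny3 reads in the KO-marked and het-marked table. Of the 30 bases of the leading Rny1 5' fragment, 17 paired with the last 35 nt of the RNA. Of the 26 bases of the leading Rny3 3' fragment, 20 paired with the first 35 nt. A predicted fold is a description, and its part in where the fragments lie was not tested.

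**Figure D2:**
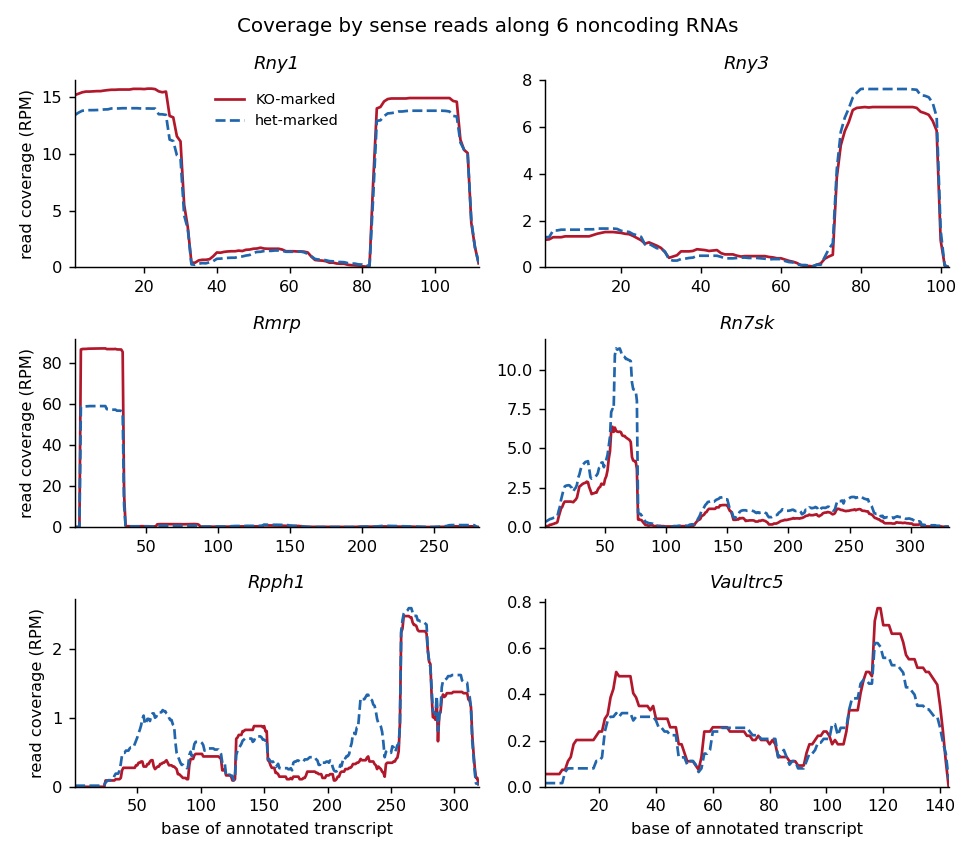
Coverage in RPM along the annotated transcripts of 6 RNAs, in the KO-marked (red) and het-marked (blue, dashed) table. Rny1 is covered at both ends, Rny3 mostly at its 3' end, and Rmrp within 1 block near its 5' end, while Rn7sk, Rpph1 and Vaultrc5 are covered over more of their length.

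Some Rny1 reads ended in an A that the transcript does not hold at that place. Reads that matched Rny1 up to their last 1 to 3 bases, were A or U past that point, and matched no annotated transcript exactly, came to 189 in the KO-marked and 209 in the het-marked table. Only A stood past that point in 165 and 173 of them. The chief form, with the unmatched base in capitals, had 95 and 89 reads.
Rny1 5' fragment with A: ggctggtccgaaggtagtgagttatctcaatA
At that point, after base 31, 47.1% of KO-marked and 53.9% of het-marked reads had the unmatched A, and after base 110 the share was 26.6% and 26.7%. For Rny3 the share after base 99 was 3.41% and 3.18%. The chief form is 32 nt long, the longest read kept, so it cannot show whether the A was added or replaced base 32. The source of the unmatched A was not tested.

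Vaultrc5 gave too few reads for a firm profile. The 3' end held 24 of 93 KO-marked and 19 of 89 het-marked reads, or 25.8% (17.3 to 35.9) and 21.4% (13.4 to 31.3), and the 5' end held 3 and 1. The most frequent start was base 117 of 143, with 14 and 12 reads, and no sequence passed 5 reads in a table. The RNA was covered over its whole length. The ratio of KO-marked over het-marked was 1.21 (0.892 to 1.63), so a difference was not detectable at this depth.

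Rmrp was represented almost wholly by 1 fragment of its 5' end. GENCODE M21 has 2 entries for it on the minus strand of chromosome 4, of 281 nt (43492783 to 43493063) and of 271 nt (43492788 to 43493058), and positions are given on the longer. The 5' end held 95.4% (94.8 to 96.0) of the KO-marked and 92.6% (91.7 to 93.4) of the het-marked reads. The start at base 5, which lies 1 base before the shorter entry, alone took 4717 and 3686 reads. The ends fell on neighbouring bases, with 76.5% and 71.4% of reads finishing at base 34 and 16.7% and 15.6% at base 35.

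The leading Rmrp sequence, of 30 nt, was the most abundant sequence of all members. It had 3768 reads in the KO-marked and 2830 in the het-marked table, which was 76.2% and 71.0% of Rmrp reads. Its ratio was 1.54 (1.46 to 1.61). The 31-nt form had 822 and 619 reads and a ratio of 1.53 (1.38 to 1.70). The few reads from base 36 on, 187 and 261, had a ratio of 0.827 (0.6817 to 1.002), which joined regions that differed from each other. When reads were placed by their midpoint in 5 equal stretches of the RNA, the second had 89 and 60 reads, a ratio of 1.71 (1.22 to 2.42), led by a 30-nt fragment of bases 58 to 87 with 34 and 20 reads. The middle stretch had 50 and 95 reads, a ratio of 0.608 (0.422 to 0.864). Reads of the 3' end were 18 and 58, a ratio of 0.358 (0.199 to 0.617).

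The Rmrp fragment did not begin like a piRNA, although it has the length of one. Its first base is A, so that 95.9% of KO-marked and 93.5% of het-marked Rmrp reads began with A, and 1.74% (1.39 to 2.14) and 1.71% (1.33 to 2.16) with U. Of all reads, 74.0% and 66.5% began with U, the usual first base of piRNAs. The first-U share of the other members with at least 200 reads was also below the whole table, between 19.7% for Rpph1 and 38.3% for Rn7sk, both in the het-marked table. In the predicted fold 78.8% and 78.4% of the bases of Rmrp reads were paired, against 61.2% of the whole RNA.

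Rn7sk fragments came from inside the RNA. Only 8 of 784 KO-marked and 32 of 1586 het-marked reads began within the first 5 bases of this 331-nt RNA (chromosome 9, 78175303 to 78175633, minus strand), and 1 and 2 reads finished within the last 5. Reads within the first 85 bases made up 64.7% and 65.3%, and those starting at base 110 or later made up 34.3% and 33.5%. The gap between them was nearly empty in both tables. The most frequent end was base 76, with 175 reads in the KO-marked and 448 in the het-marked table, or 22.3% and 28.2%.

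Within the nested set that ends at base 76, the tables differed by length. The 19-nt form had 17 reads in the KO-marked and 211 in the het-marked table, a ratio of 0.0930 (0.0532 to 0.153). The 18-nt form had 0 and 42, and the interval of 0 reads in the KO-marked table reaches up to 0.0678 RPM. The 22-nt form had 61 and 81 reads, a ratio of 0.869 (0.613 to 1.23), and the 24-nt form 24 and 21, a ratio of 1.32 (0.704 to 2.49). The shorter forms were thus lower in the KO-marked table, while for the longer forms no difference was detectable. The forms of 19 to 24 nt match 8 to 10 genes each, which cannot be told apart.

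Rpph1 fragments were spread over the RNA with a peak before its 3' end. The 319-nt RNA lies on chromosome 14, 50807449 to 50807767, minus strand. Its 5' end held 0 of 369 KO-marked and 1 of 599 het-marked reads, and its last 5 bases 27 and 28. Reads starting at base 250 or later made up 53.9% and 42.7%, and the most frequent start, base 258, had 75 and 93 reads. No single sequence passed 4.61% of its KO-marked reads.

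Terc gave no fragment of its 5' end in either table. Of its 18 and 16 reads, 5 and 5 finished at the last base of the 423-nt transcript (chromosome 3, 96414437 to 96414859, minus strand). No read covered 43.3% of its bases. The ratio was 1.30 (0.625 to 2.72), and at this depth no difference was detectable.

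The read lengths set the members apart from each other. Rmrp reads were 30 nt in 77.0% of the KO-marked and 71.8% of the het-marked table, where 15.6% and 14.1% of all reads had that length. Rny1 and Rny3 peaked at 26 nt, with 18.4% and 20.2% for Rny1 and 26.3% and 23.1% for Rny3. Rny1 had a second peak at 30 nt, with 18.1% and 17.1%, where Rny3 had 4.28% and 2.42%. Rny1 5' fragments had a median of 30 nt and its 3' fragments 27 nt in both tables. Rpph1 was broad with a mode of 25 nt. Rn7sk had its mode at 22 nt in the KO-marked table (14.4%) and at 19 nt in the het-marked table (20.1%). Reads over 32 nt are not in the tables, so any longer 5' fragments of Rny1 were not seen.

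**Figure D3:**
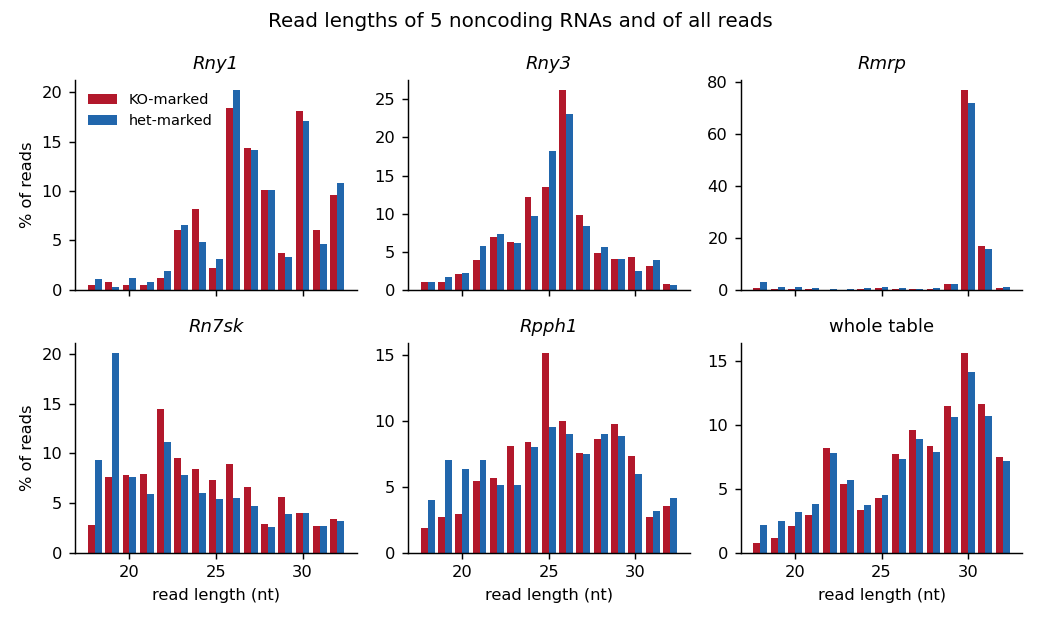
Share of reads (%) at each length from 18 to 32 nt for 5 RNAs and for all reads, in the KO-marked (red) and het-marked (blue) table. Rmrp stands almost wholly at 30 and 31 nt, and the 19-nt bar of Rn7sk is high in the het-marked table only, at 20.1%.

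Among 1656 genes under 500 nt with at least 200 reads and no read shared with the member, those with the most similar length profile over 15 lengths were found for each of the 5 RNAs with that many reads. For Rmrp it was the snRNA entry Gm25202 (Pearson r 0.985), for Rny3 the pseudogene Hist1h2al (0.961) and for Rn7sk the misc_RNA entry Gm27316 (0.901). Rpph1 was most like the pseudogene Gm5479 (0.871) and Rny1 like the pseudogene Gm7117 (0.811). These are descriptions over lengths that share the same 2 libraries.

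The ratio between the tables differed from RNA to RNA, and none passed a log2 ratio of 1 in size. With 0.5 reads added to each count, the log2 ratio of the KO-marked to the het-marked table was 0.52 for Rmrp (-0.31 with distinct sequences in place of reads), 0.14 for Rny1 (-0.09 per miRNA reads and -0.20 with reads of 18 to 23 nt), -0.13 for Rny3 (0.15 with distinct sequences), -0.49 for Rpph1 and -0.81 for Rn7sk. As plain ratios these were 1.43 (1.37 to 1.49), 1.11 (1.04 to 1.18), 0.914 (0.810 to 1.03), 0.711 (0.623 to 0.811) and 0.571 (0.523 to 0.622). The interval of Rny3 spans 1, and the others do not. The median of the 5 was -0.13, beside -0.06 over 11041 annotated genes with at least 200 sense reads. Of those genes 2.56% lay at or past 1 in size, 0.0181% higher and 2.55% lower in the KO-marked table, and 0 of the 5 members did. Scaled to miRNA reads, which moved every gene by -0.23, 4.39% of genes did, all of them lower, and 1 member, Rn7sk, at -1.04. Rmrp lay above 98.2% of the genes and Rn7sk above 3.99%. Classes of noncoding RNA differed from all genes. The median was -0.70 for 46 misc_RNA genes, with 42 below 0 and 11 at or below -1. That class holds Gm24447, Gm26315 and Gm26035, which share most Rn7sk reads. It was -0.43 for 312 snRNA genes, with 272 below 0. Of 116 snoRNA genes 71 lay above 0 (median 0.13), as did all 5 scaRNA genes (median 0.31).

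Part of the difference ran with read length. The share of all reads at 18 to 20 nt was 4.08% in the KO-marked and 7.83% in the het-marked table, a ratio of 0.522 over all reads. At that length Rn7sk had a ratio of 0.281 (0.232 to 0.338) from 143 and 588 reads, Rmrp 0.293 (0.211 to 0.400) from 51 and 201, and Rpph1 0.311 (0.197 to 0.476) from 28 and 104. These 3 lay below all reads of the same length. Of the Rmrp reads, those finishing at base 22 gave 17 and 95, the same counts as the reads shared with the coding gene Hydin. Of the Rn7sk reads, forms ending at base 76 gave 0 and 42 at 18 nt and 17 and 211 at 19 nt. At 20 nt they gave 11 and 34. Whether Rmrp and Rn7sk lay below all reads without these forms was not tested. The Y RNAs had 0.683 (0.416 to 1.10) for Rny1, from 29 and 49 reads, and 0.770 (0.4142 to 1.401) for Rny3, from 20 and 30, and their intervals include the value of all reads.

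The longest reads separated Rmrp from the others. At 29 to 32 nt the ratio over all reads was 1.09. Rmrp had 1.53 (1.47 to 1.60), from 4791 and 3612 reads, and Rny1 1.16 (1.04 to 1.29). Rny3 had 1.02 (0.708 to 1.46), Rpph1 0.746 (0.562 to 0.986) and Rn7sk 0.651 (0.518 to 0.816). Over reads of 18 to 23 nt, 2 of the 5 members, Rmrp and Rn7sk, lay at or below -1. Of 7542 genes with at least 200 reads of that length, 8.42% lay at or past 1 in size, 8.39% lower and 0.0265% higher. Over reads of 24 to 32 nt 0 of the 5 did, where 0.323% of 8974 genes did, 0.189% higher and 0.134% lower. When reads were scaled by the table's reads of the same length, the log2 ratio was 0.23 for Rmrp, 0.20 for Rny1, -0.01 for Rny3, -0.37 for Rpph1 and -0.65 for Rn7sk. The value of Rmrp fell from 0.52 to 0.23 on this scale, while that of Rny1 moved little. The scale gives more weight to reads of lengths that are rare in the table, such as 18 nt. At 29 to 32 nt, with 96.9% of KO-marked and 90.7% of het-marked Rmrp reads, the log2 ratio of Rmrp was 0.61. Over all reads of 29 to 32 nt it was 0.12. How much of the Rmrp ratio ran with read length was not tested.

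**Figure D4:**
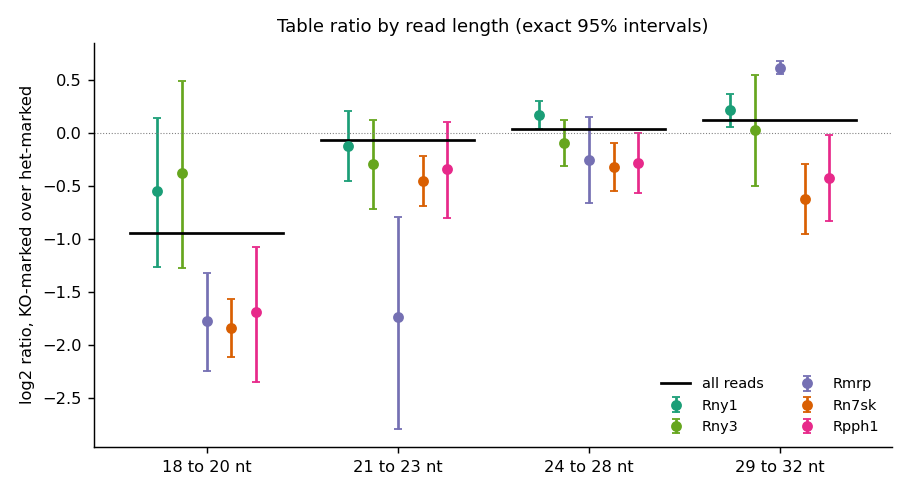
Log2 ratio of the KO-marked over the het-marked table for 5 RNAs in 4 classes of read length, with exact 95% intervals, and black lines for all reads of the table. At 18 to 20 nt Rmrp, Rn7sk and Rpph1 lie below the line of all reads (ratio 0.522), and at 29 to 32 nt Rmrp alone lies clearly above it (1.53 against 1.09).

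Reads shared with other genes moved 1 ratio. For Rpph1 the reads that matched it alone, 185 in the KO-marked and 240 in the het-marked table, had a ratio of 0.890 (0.730 to 1.08), while the shared ones, 184 and 359, had 0.592 (0.493 to 0.709). Along the RNA the ratio was 0.897 (0.742 to 1.08) from base 250 on and 0.572 (0.473 to 0.690) before it. That lower part was uneven: of 5 equal stretches, the third had 0.880 (0.620 to 1.24) and the fourth 0.402 (0.271 to 0.587). The few Rmrp reads shared with the coding gene Hydin, 17 and 95, had 0.207 (0.116 to 0.348), and without them Rmrp had 1.46 (1.40 to 1.53). For Rn7sk the reads that matched it alone had 0.561 (0.428 to 0.731) and the shared ones 0.572 (0.522 to 0.627).

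Other structured noncoding RNAs lay both above and below 0, mostly below. Of a list of 25, 17 had at least 200 sense reads, none was at or past 1 in size, 3 lay above 0 and 14 below, and the median was -0.21. Over all 11041 genes 4697 lay above 0 and 6344 below, with 2.56% at or past 1 in size. The 17 include entries that share all their reads, Rn7s1 with Rn7s2 and Rnu1b1 with Rnu1b2, which have the same counts. The spliceosomal RNA gene Rnu2-10 had 795.0 RPM in the KO-marked and 612.5 in the het-marked table (log2 0.38). Rn7s1 and Rn7s2, the signal recognition particle RNA, had the same counts, 6391 and 13556 reads (-0.88), since they share sequence, and Rn7s6 lay at -0.74. Snord118, the U8 RNA of ribosome assembly, was the highest at 0.63. In all, 23 of the 25 had a matching read.

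The mRNAs of the proteins that bind these RNAs were also counted. Of 26 listed symbols, which include Ro60 and its older name Trove2, 12 had at least 200 sense reads, and they lay between -0.31 for Cdk9 and 0.33 for Hexim1, with a median of 0.04. Of those with fewer reads, Nhp2 had 91 and 63, a ratio of 1.67 (1.20 to 2.34), and Tep1 had 5 and 18, a ratio of 0.321 (0.0931 to 0.896). Rpp40, a protein of RNase P and MRP, had 392.9 and 471.9 RPM (-0.26), Mvp, the major vault protein, 140.8 and 151.4 (-0.10), Dkc1, of the telomerase particle, 93.2 and 88.6 (0.07), and Trove2, which encodes Ro60, 64.9 and 63.5 (0.03). Small RNA reads of an mRNA do not measure its level.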

How the data were processed

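Both deposited tables pair every distinct sequence with a raw, unscaled read count, as the values show. Per the labels' protocols, 20 µg of Trizol RNA was run on a 15% gel, and the 15 to 40 nt fraction went into TruSeq Small RNA libraries. How reads were trimmed and filtered is not given in the sources used here. Reads of 18 to 32 nt were matched with 0 mismatches, sense, to all GENCODE M21 transcripts (GRCm38) with numba 0.67.0 in Python 3.11.15. No genome sequence was used here, so unannotated copies stay unseen. A read counted in full, once per gene. RPM uses all reads of a table. Ratios have nothing added, and log2 ratios have 0.5 reads added. Genes needed 200 reads in the tables together. Folds are from ViennaRNA 2.7.2 and alignments from Biopython 1.88. On simulated counts for 11041 genes, the true ratio lay within the interval for 98% of 50 genes set to -1 and 90% of 50 set to 1 (log2). It did so for 95.6% of 10841 genes set to 0, and for 100% and 96% of those set to -2 and 2. Of the genes set to -1 and 1, 44% and 48% came out at or past 1 in size. The members and lists were chosen with earlier results of these data known. The rule named all 7 members, and of each list the 4 genes with most reads and up to 4 at or past 1 in size; Cdk9, Hexim1, Nhp2, Tep1, Snord118, Rnu1b1 and Rnu1b2 were chosen after their values were seen, as were the regions within a member.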

Additional observations from a re-analysis of the deposited data

How the results depend on the processing

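The median log2 ratio of the 5 members with at least 200 reads stayed below 0 in all 12 alternatives, from -0.86 to -0.01. It was -0.36 on the scale of miRNA reads, -0.86 with reads of 18 to 23 nt alone and -0.31 with distinct sequences in place of reads. The number of members at or past 1 in size was 1 on the miRNA scale (Rn7sk, -1.04, where 4.39% of genes were) and 2 with reads of 18 to 23 nt (Rmrp, -1.76, and Rn7sk, -1.11), and 0 otherwise. Single directions were less firm. Rmrp was -0.31 with distinct sequences, Rny1 -0.09 on the miRNA scale and -0.20 at 18 to 23 nt, and Rny3 0.15 with distinct sequences. With length-matched scaling, which gives more weight to reads of rare lengths, Rmrp was 0.23. Without the most abundant sequence of each member, Rmrp was 0.24 and Rn7sk -0.63. Rn7sk stayed below 0 throughout, at -0.69 without its reads ending at base 76, an alternative chosen after seeing the data. The number of members with at least 50% of reads at an end was 3 in each table, 0 with the first or last base alone and 1 with distinct sequences. Of genes with at least 50 reads, 3.62% lay at or past 1. No paired analysis was possible because each table is 1 library, with no replicates to pair. Low counts limit Vaultrc5 and Terc.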
